A study of Mus musculus with 9 samples.

Results

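The genes described here carry the insulin and insulin-like growth factor (IGF) signal from its ligands to the first intracellular adaptors: the ligands Igf1 and Igf2, the receptors Insr, Igf1r and Igf2r, the docking proteins Irs1 and Irs2, the adaptors Shc1 and Grb2, and the receptor inhibitor Grb10. Their probe sets were taken by symbol, as every probe set whose only gene symbol in the platform table is one of these names, which gave 25 probe sets for 10 genes out of 34945 single-symbol probe sets for 18193 genes. The names set the group, but it was selected on earlier results of these same 9 arrays, in which changes of Igf1r, Igf2r, Irs1 and Grb10 were already known. The changes of these genes between the groups are therefore given as a description, with no p-value. Where a member's change is said to be called, that states only on which side of the threshold used for all genes it fell, and it is no independent evidence.

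The arrays (Affymetrix mouse 430 2.0) came from BC3H1, a mouse brain tumour cell line with myogenic properties, in 3 groups of 3. The resistant cells, RR_Rap, are the line RR1, obtained by keeping BC3H1 cells in 1 uM rapamycin for 6 months and held in 1 uM rapamycin when sampled. The sensitive cells, RS_Rap, are BC3H1 cells given 100 nM rapamycin for 24 h, and RS_DMSO are BC3H1 cells given the solvent DMSO for 24 h. The medium named for the cells is DMEM with fetal bovine serum. RR_Rap is 1 resistant line, and it differs from RS_Rap in line, dose and length of exposure, which cannot be told apart. Whether arrays of one group were separate cultures is not in the labels, so the errors and p-values measure the spread between arrays, which may be technical. RR_Rap and RS_Rap were both set against the same 3 RS_DMSO arrays.

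Rapamycin inhibits mTORC1, a kinase complex that acts downstream of the insulin and IGF receptors. Insulin, IGF1 and IGF2 bind receptor tyrosine kinases, which phosphorylate IRS proteins and Shc and so engage PI3-kinase with Akt on one arm and Grb2 with Ras on the other. Active mTORC1 and S6 kinase feed back on this step: they promote the phosphorylation and breakdown of IRS1, and mTORC1 phosphorylates and stabilises Grb10, which binds and restrains both receptors. The arrays measure RNA, so these steps on the IRS1 and Grb10 proteins were not measured here. Igf2r is no signalling kinase: it clears IGF2 from the cell surface and carries mannose-6-phosphate-tagged enzymes to lysosomes. Grb10, Igf2 and Igf2r are imprinted genes in the mouse.

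The median signal was 33.5 to 44.3 on 8 arrays and 66.2 on the third RS_DMSO array, which also correlated with the other 2 arrays of its group at 0.947 and 0.948, where those 2 correlated at 0.975. The log2 difference between the 3' and the 5' control probe sets of Actb, a sign of RNA quality, was highest in RR_Rap. It was 0.32 to 0.35 in RR_Rap, 0.15 to 0.22 in RS_Rap and 0.17 to 0.18 in RS_DMSO. For Gapdh it was −0.326 to −0.247, −0.405 to −0.332 and −0.329 to −0.3 in these groups, and RR_Rap overlapped RS_DMSO. The part of RNA quality in the results was not tested. Of the muscle markers, 4 of 5 for smooth muscle were above the filter on low signal, with Myh11 below it, and 4 of 5 for skeletal muscle, with Myod1 below it. The summed smooth muscle signal was 7754 to 9532 in RR_Rap, 25400 to 25650 in RS_Rap and 19970 to 27320 in RS_DMSO, and that of 4 fibroblast markers was 8881 to 10390 in RR_Rap, 28770 to 34550 in RS_Rap and 20460 to 25580 in RS_DMSO. The sums for skeletal muscle (250 to 258 in RR_Rap, 523 to 632 in RS_Rap and 661 to 693 in RS_DMSO), glia (50.4 to 79.8 in RR_Rap, 168 to 202 in RS_Rap and 96.4 to 362 in RS_DMSO) and neurons (175 to 209 in RR_Rap, 237 to 249 in RS_Rap and 230 to 529 in RS_DMSO) were likewise lower in RR_Rap without overlap. Those of macrophages, endothelium and epithelium overlapped between RR_Rap and RS_Rap. A sum follows its brightest markers, and not every marker was lower in RR_Rap than in RS_Rap. Of the glial markers Mbp averaged 6.94 and 90.2 in these groups and Gfap 28.6 and 50.5, but Aqp4 27.5 and 23.1. Tubb3 of neurons averaged 113 and 174, but Rbfox3 38.5 and 31.6 and Syt1 30.5 and 29.0. For skeletal muscle Chrna1 averaged 15.1 and 467 and Actc1 42.9 and 47.1, but Myog 98.9 and 17.8 and Ckm 77.4 and 18.1. Of fibroblast markers only Thy1 was not lower (25.6 and 23.8). The part of these markers in the differences of RR_Rap was not tested, and in bulk cultures fewer cells of a type and less RNA per cell cannot be told apart. The glial markers Olig1 and Olig2 were below the filter, as were Snap25 of neurons, Ptprc of macrophages, Pecam1 and Cdh5 of endothelium and Krt18 and Cdh1 of epithelium.

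The 250 bases before the annotated transcription start are shown for the members whose signals separated the groups furthest, from RefSeq on GRCm38.p6 and written 5' to 3' along the gene, with E-boxes (CACGTG) and GC boxes (GGGCGG or CCGCCC) in capitals. Of the 10 genes 9 had an entry, with 15 such windows in all, and Insr had none. For Grb10 and Igf2, which have 2 and 4 annotated windows, the one richest in CpG is shown.
Grb10 chr11:12037421-12037670 (minus strand): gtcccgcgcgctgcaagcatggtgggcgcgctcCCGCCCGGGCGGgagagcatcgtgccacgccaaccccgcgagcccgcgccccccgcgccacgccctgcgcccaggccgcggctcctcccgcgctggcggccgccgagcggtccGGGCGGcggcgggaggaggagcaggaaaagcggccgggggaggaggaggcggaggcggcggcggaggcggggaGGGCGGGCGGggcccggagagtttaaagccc
Igf1r chr7:67952007-67952256 (plus strand): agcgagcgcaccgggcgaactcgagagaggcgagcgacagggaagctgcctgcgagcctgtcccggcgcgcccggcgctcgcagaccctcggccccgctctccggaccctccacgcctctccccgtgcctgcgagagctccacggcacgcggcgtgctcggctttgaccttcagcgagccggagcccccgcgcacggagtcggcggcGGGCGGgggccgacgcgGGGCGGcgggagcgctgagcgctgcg
Igf2r chr17:12769707-12769956 (minus strand): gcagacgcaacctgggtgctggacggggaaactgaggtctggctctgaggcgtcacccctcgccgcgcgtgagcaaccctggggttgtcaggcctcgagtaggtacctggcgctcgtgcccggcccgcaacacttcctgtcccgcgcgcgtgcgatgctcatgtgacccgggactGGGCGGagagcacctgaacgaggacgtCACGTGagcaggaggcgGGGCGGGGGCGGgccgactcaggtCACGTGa
Irs1 chr1:82291440-82291689 (minus strand): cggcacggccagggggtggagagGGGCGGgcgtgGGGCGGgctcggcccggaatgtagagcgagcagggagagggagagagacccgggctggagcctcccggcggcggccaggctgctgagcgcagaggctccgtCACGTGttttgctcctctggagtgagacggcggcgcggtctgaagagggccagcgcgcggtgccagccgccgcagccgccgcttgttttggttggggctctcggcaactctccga
Igf2 chr7:142658805-142659054 (minus strand): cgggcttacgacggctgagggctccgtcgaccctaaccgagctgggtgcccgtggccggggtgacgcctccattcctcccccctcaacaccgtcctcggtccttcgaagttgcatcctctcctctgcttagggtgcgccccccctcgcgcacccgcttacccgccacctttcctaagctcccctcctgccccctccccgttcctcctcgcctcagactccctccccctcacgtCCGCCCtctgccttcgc
The Igf1r window held 42 CpG dinucleotides and the Grb10 window 40, where the median over 32851 mouse windows was 6 and 1.3% held 40 or more. The windows of Irs1, Igf2r and Igf2 held 28, 27 and 22, a level of 20 or more that 17.9% of windows reached, while the other Grb10 window held 8 and the other Igf2 windows 10, 6 and 1. An E-box stood in 3 of the 15 windows, with 2 matches in Igf2r and 1 each in Irs1 and Irs2, against 6.0% of all windows. A GC box on either strand was found in 8 of the 15 windows, for 7 genes, against 32.7% of all windows, and 1 pair of the Grb10 matches overlaps. The FoxO recognition letters GTAAACA (either strand) were in no member window and in 3.2% of all windows. These matches describe the letters in the window and are no evidence that a factor binds there.

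**Figure D1:**
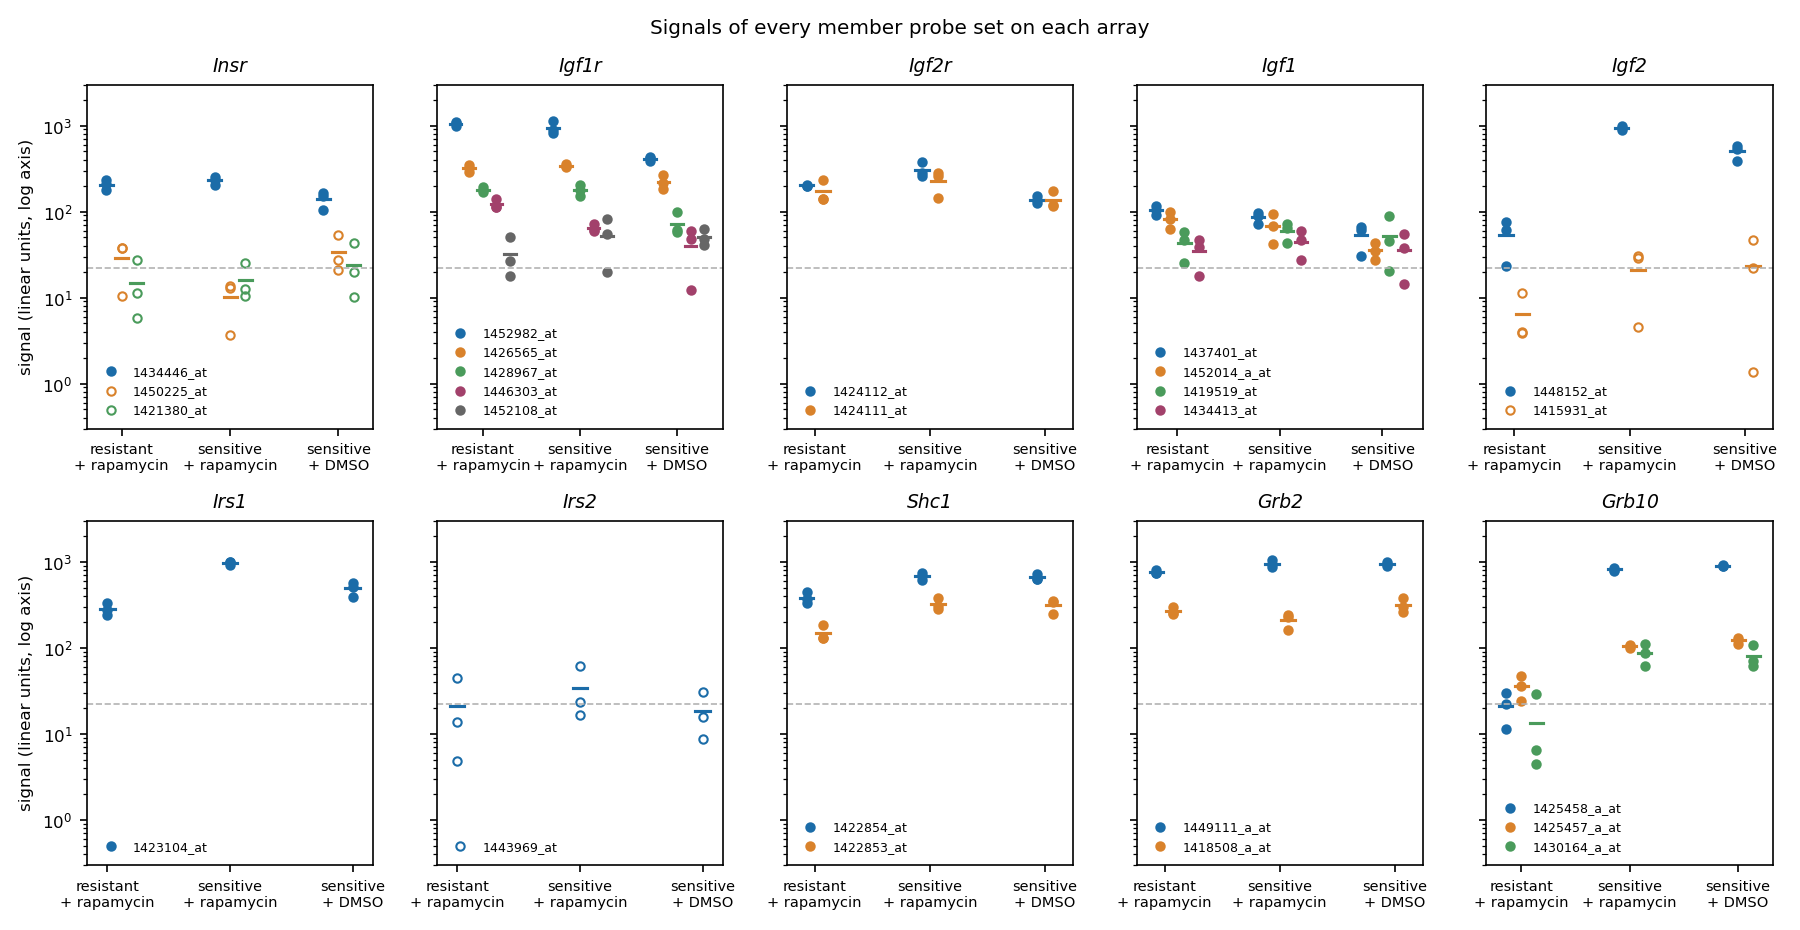
Signal of every member probe set on each of the 9 arrays, on a log axis, with RR_Rap, RS_Rap and RS_DMSO from left to right, short bars for group means, a dashed line at the filter signal of 22.2 and open circles for probe sets below the filter. Grb10 and Igf2 sit far lower in RR_Rap than in the other groups, and the brightest probe sets of Igf1r and Insr are higher in both rapamycin groups than in RS_DMSO.

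The resistant cells had a Grb10 signal near background, little Igf2 and less Irs1, while Igf1r and Insr were above the DMSO level in both rapamycin groups. Probe sets whose mean log2 signal lay above the 40th percentile, a signal of 22.2, were compared with limma on log2(signal + 16), and a call is a Benjamini-Hochberg adjusted p under the threshold of 0.05 over all 27022 probe sets compared. Of the 25 member probe sets 21 passed this filter, covering 9 of the 10 genes, and 19 of the 21 had every group mean above it. The 2 others, both of Grb10, passed only through the sensitive groups. Counted through the brightest probe set of each gene, 6 of the 9 genes were called in RR_Rap against RS_Rap, 0 higher and 6 lower, where 55.7% of all genes were called (25.9% higher and 29.9% lower). In RS_Rap against RS_DMSO 5 of 9 were called, 5 higher and 0 lower, where 33.7% of all genes were called (19.2% higher and 14.5% lower). In RR_Rap against RS_DMSO 9 of 9 were called, 4 higher and 5 lower, where 50.8% of all genes were called (25.5% higher and 25.3% lower). The median log2 change of the 9 genes was −0.55, 0.68 and −0.29 in these 3 comparisons, beside −0.08, 0.03 and −0.06 over all 12715 genes. The arrays of the 2 groups did not overlap for 0 genes higher and 6 lower in the first comparison, where 65.4% of all genes did not overlap (30.1% higher and 35.3% lower). In the second this held for 6 higher and 1 lower, against 43.2% of all genes (25.1% and 18.1%), and in the third for 4 higher and 5 lower, against 58.6% (28.9% and 29.6%). Without the third RS_DMSO array the called counts were the same, 6, 5 and 9. Since the genes were selected on these comparisons, nothing is read from the counts. Of the 21 probe sets 9, 8 and 16 were called, where 47.7%, 28.0% and 43.7% of all probe sets were.

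**Figure D2:**
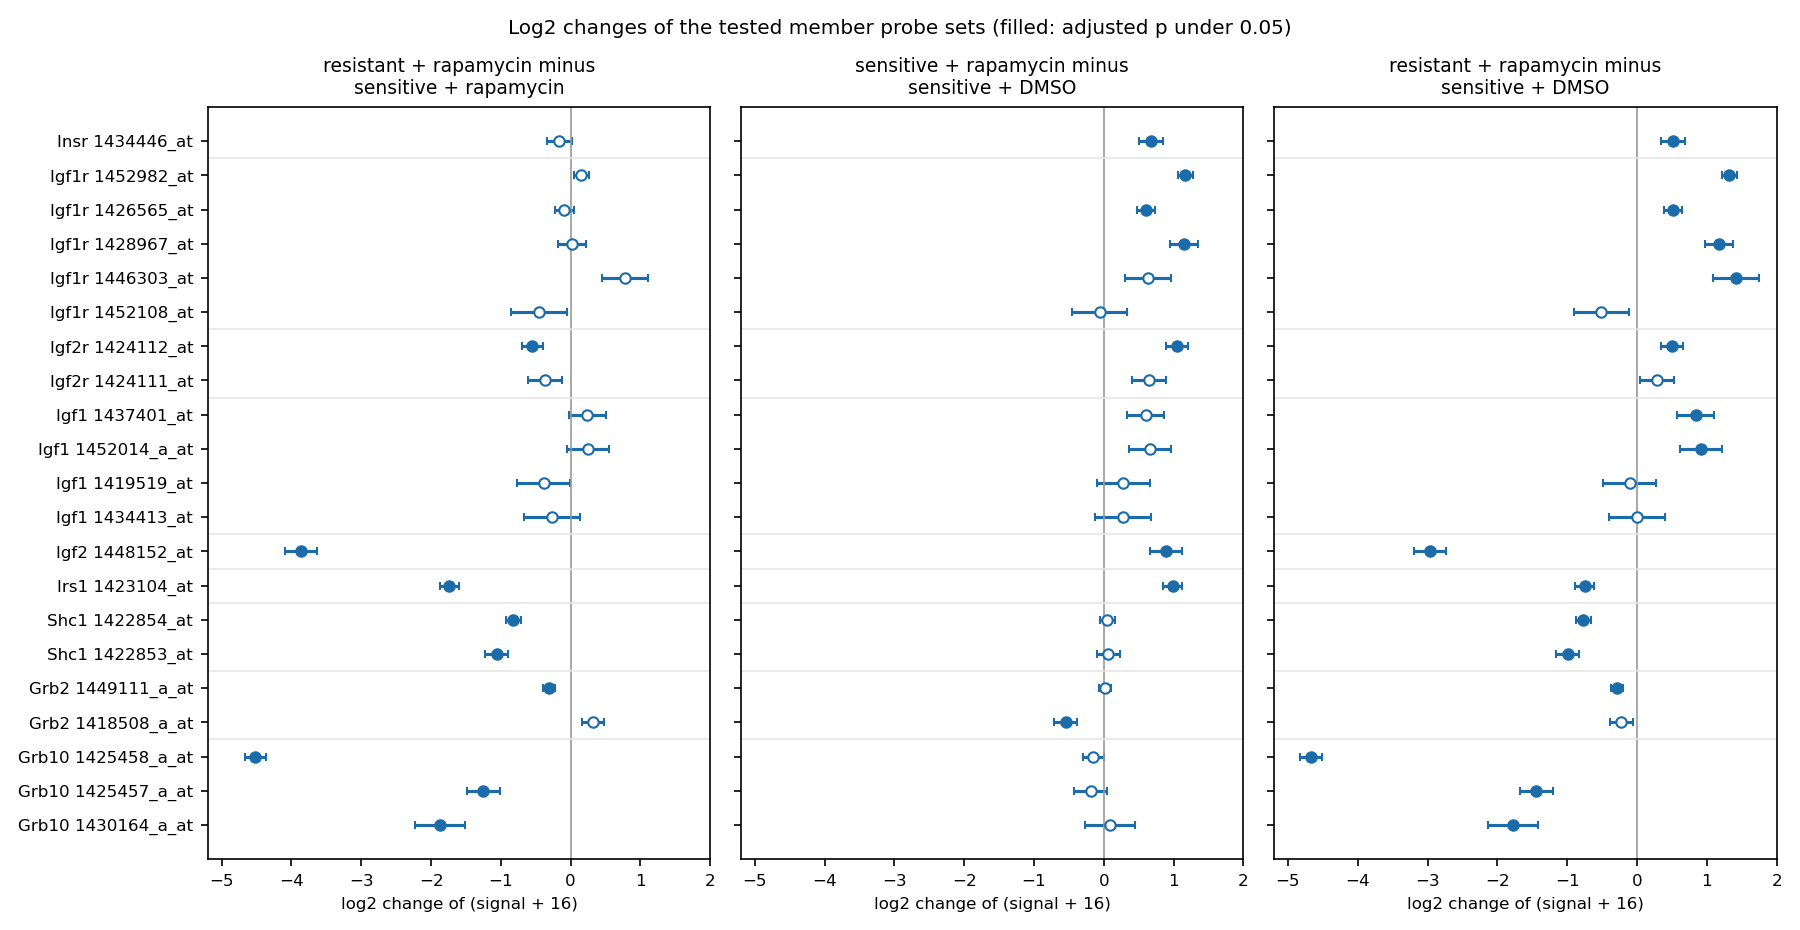
Log2 change of each tested member probe set with its standard error in RR_Rap minus RS_Rap, RS_Rap minus RS_DMSO and RR_Rap minus RS_DMSO, with filled points for an adjusted p under the threshold of 0.05. The largest changes are those of Grb10 in the RR_Rap comparisons (−4.52 and −4.67), and the points of the brightest Igf1r, Igf2r, Irs1, Igf2 and Insr probe sets lie to the right of 0 in RS_Rap minus RS_DMSO.

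Igf1r, the receptor kinase for IGF1 and IGF2, was higher in both rapamycin groups. Its brightest probe set, 1452982_at, read 1095, 982 and 1068 on the RR_Rap arrays, 1132, 819 and 895 on the RS_Rap arrays and 415, 383 and 432 on the RS_DMSO arrays. All 6 rapamycin arrays were above all 3 DMSO arrays, and the 2 rapamycin groups overlapped. The log2 change was 0.15 ± 0.11 (SE of the fit) in RR_Rap against RS_Rap, with a 95% interval of −0.07 to 0.38, 1.17 ± 0.11 in RS_Rap against RS_DMSO and 1.32 ± 0.11 in RR_Rap against RS_DMSO. Probe sets 1426565_at and 1428967_at were called in the same direction against RS_DMSO, at 0.60 ± 0.13 and 1.15 ± 0.20 in RS_Rap and 0.51 ± 0.13 and 1.17 ± 0.20 in RR_Rap. Probe set 1446303_at read 112, 139 and 114 in RR_Rap, 61.1, 72.5 and 58.7 in RS_Rap and 59.4, 48.3 and 12.2 in RS_DMSO. Here the 2 rapamycin groups did not overlap, but the log2 change between them, 0.78 ± 0.33, was not called, while 1.42 ± 0.33 in RR_Rap against RS_DMSO was. The fifth probe set, 1452108_at, was dim, at 17.9 to 51.0 in RR_Rap, 19.9 to 81.6 in RS_Rap and 40.5 to 62.7 in RS_DMSO, with overlapping groups and no call. With a mean over its probe sets in place of the brightest, the log2 change of Igf1r was 0.70 in RS_Rap and 0.78 in RR_Rap against RS_DMSO.

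Insr, the insulin receptor, was also higher in both rapamycin groups than in RS_DMSO. Probe set 1434446_at read 207, 233 and 177 in RR_Rap, 255, 205 and 233 in RS_Rap and 104, 165 and 153 in RS_DMSO. Every rapamycin array was above every DMSO array, and RR_Rap and RS_Rap overlapped. The fit gave a log2 change of −0.16 ± 0.18 in RR_Rap against RS_Rap (95% interval −0.53 to 0.21), 0.68 ± 0.18 in RS_Rap against RS_DMSO and 0.52 ± 0.18 in RR_Rap against RS_DMSO. The last of these calls was lost without the first RS_DMSO array, where the change was 0.33, and without the first or the second RR_Rap array, where it was 0.51 and 0.43. The other 2 Insr probe sets were below the filter, at 3.66 to 53.6 over the 9 arrays for 1450225_at and 5.76 to 42.5 for 1421380_at. Of these, 1450225_at ran the other way in RS_Rap, with all 3 arrays (12.9, 13.5 and 3.66) under all 3 RS_DMSO arrays (53.6, 27.4 and 21.1).

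Igf2r, which clears IGF2 and sorts lysosomal enzymes, was highest in RS_Rap and lowest in RS_DMSO. Probe set 1424112_at read 200, 204 and 199 in RR_Rap, 377, 280 and 258 in RS_Rap and 151, 137 and 125 in RS_DMSO. None of the 3 groups overlapped, and RR_Rap lay between the other two with the narrowest spread, 201 ± 2.68 (SD). The log2 change was −0.55 ± 0.15 in RR_Rap against RS_Rap, 1.05 ± 0.15 in RS_Rap against RS_DMSO and 0.50 ± 0.15 in RR_Rap against RS_DMSO, each called. The first of these calls was lost without the first RS_Rap array, the highest of its group, where the change was −0.39. The second probe set, 1424111_at, read 140 to 234 in RR_Rap, 142 to 282 in RS_Rap and 116 to 174 in RS_DMSO, and its changes in the same 3 comparisons, −0.37, 0.65 and 0.29, were not called.

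Of the ligands, Igf2 separated all 3 groups. Probe set 1448152_at read 74.7, 61.5 and 23.5 in RR_Rap, 991, 930 and 878 in RS_Rap and 390, 538 and 575 in RS_DMSO. The resistant arrays were all far below the DMSO arrays and the RS_Rap arrays all above them. On the log2 scale the change was −3.86 ± 0.23 in RR_Rap against RS_Rap, 0.89 ± 0.23 in RS_Rap against RS_DMSO and −2.97 ± 0.23 in RR_Rap against RS_DMSO. The size of the fall depended on the constant added before the logarithm, since the resistant signals are dim: against RS_Rap it was −3.11 with a pseudocount of 64 and −4.26 with 1. A second Igf2 probe set, 1415931_at, was below the filter, at 1.37 to 46.1.

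Igf1, the other ligand, was above RS_DMSO in both rapamycin groups, and was called in RR_Rap. Probe set 1437401_at read 104, 116 and 91.0 in RR_Rap, 72.1, 95.9 and 87.9 in RS_Rap and 61.3, 66.9 and 30.2 in RS_DMSO. Both rapamycin groups were wholly above RS_DMSO and overlapped each other. The change in RS_Rap against RS_DMSO, 0.60 ± 0.27 with an unadjusted 95% interval of 0.04 to 1.16, was not called, while 0.84 ± 0.27 in RR_Rap against RS_DMSO was. Without the third RS_DMSO array, which read lowest of its group on this probe set, these changes were 0.33 and 0.57, the second still called. Leaving out the first or the second RR_Rap array ended that call, at 0.83 and 0.77. Probe set 1452014_a_at gave the same pattern of calls, with 0.91 ± 0.30 in RR_Rap against RS_DMSO, and the remaining 2 probe sets, 1419519_at and 1434413_at, were not called in any comparison (−0.11 ± 0.38 and 0.00 ± 0.40 in RR_Rap against RS_DMSO).

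Irs1, the docking protein on which the mTORC1 feedback acts, was highest in RS_Rap and lowest in RR_Rap. Its single probe set, 1423104_at, read 277, 336 and 242 in RR_Rap, 934, 1012 and 992 in RS_Rap and 577, 515 and 387 in RS_DMSO. The 3 groups did not overlap, and the 2 rapamycin groups lay on opposite sides of the DMSO group. The log2 change was −1.74 ± 0.14 in RR_Rap against RS_Rap, 0.98 ± 0.14 in RS_Rap against RS_DMSO and −0.75 ± 0.14 in RR_Rap against RS_DMSO. Irs2, the second main IRS protein, had 1 probe set, 1443969_at, below the filter. It read 44.3, 13.9 and 4.92 in RR_Rap, 61.9, 23.8 and 16.7 in RS_Rap and 8.69, 15.8 and 30.6 in RS_DMSO, with all groups overlapping, so that no difference was detectable at this signal.

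Shc1, the adaptor that leads to Grb2 and Ras, was lower in the resistant cells. Probe set 1422854_at read 452, 333 and 371 in RR_Rap, 623, 691 and 753 in RS_Rap and 638, 631 and 723 in RS_DMSO. The resistant arrays were below all others, and the sensitive groups overlapped. The fit gave a log2 change of −0.82 ± 0.11 in RR_Rap against RS_Rap, 0.05 ± 0.11 in RS_Rap against RS_DMSO (95% interval −0.19 to 0.29) and −0.77 ± 0.11 in RR_Rap against RS_DMSO. A second probe set, 1422853_at, gave −1.06 ± 0.17, 0.07 ± 0.17 and −0.996 ± 0.17 in the same comparisons. The 2 Shc1 probe sets had the same calls.

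Grb2, which links Shc and IRS proteins to the Ras exchange factor Sos, gave probe sets that disagreed. Probe set 1449111_a_at read 810, 749 and 751 in RR_Rap, 876, 951 and 1048 in RS_Rap and 991, 949 and 890 in RS_DMSO, with the resistant arrays below all others. The log2 change was −0.31 ± 0.09 in RR_Rap against RS_Rap, 0.02 ± 0.09 in RS_Rap against RS_DMSO (95% interval −0.16 to 0.20) and −0.29 ± 0.09 in RR_Rap against RS_DMSO. The second probe set, 1418508_a_at, read 248, 298 and 253 in RR_Rap, 163, 231 and 244 in RS_Rap and 263, 302 and 385 in RS_DMSO. There the RR_Rap arrays were above the RS_Rap arrays, at 0.32 ± 0.16 and not called, and RS_Rap was lower than RS_DMSO at −0.54 ± 0.16. Both calls of 1449111_a_at were lost when each array was centred on its 75th percentile, at −0.18 and −0.19, and when both probe sets were averaged, at 0.006 in RR_Rap against RS_Rap and −0.26 in RR_Rap against RS_DMSO. The call against RS_DMSO was also lost without the first RS_DMSO array, at −0.25.

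Grb10, which binds the insulin and IGF1 receptors and restrains them, showed the largest difference of the 9 genes above the filter. Probe set 1425458_a_at read 30.3, 22.3 and 11.3 in RR_Rap, 857, 809 and 792 in RS_Rap and 910, 911 and 912 in RS_DMSO. The resistant arrays averaged 21.3 ± 9.51 (SD, n = 3), under the filter signal of 22.2, so the size of the fall is limited by background. On the log2 scale the change was −4.52 ± 0.15 in RR_Rap against RS_Rap and −4.67 ± 0.15 in RR_Rap against RS_DMSO. With a pseudocount of 64 it was −3.38 and −3.52, and with 1 it was −5.30 and −5.46. In RS_Rap all 3 arrays were below the RS_DMSO arrays, but the change of −0.15 ± 0.15 (95% interval −0.48 to 0.18) was not called.

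The other 2 Grb10 probe sets were also lower in the resistant cells. Probe set 1425457_a_at read 36.1, 47.2 and 24.3 in RR_Rap, 101, 107 and 109 in RS_Rap and 113, 125 and 131 in RS_DMSO, and 1430164_a_at read 4.47, 28.9 and 6.61 in RR_Rap, 61.5, 111 and 87.9 in RS_Rap and 71.2, 109 and 61.9 in RS_DMSO. All resistant arrays were below all sensitive arrays on both. The log2 changes were −1.25 ± 0.24 and −1.87 ± 0.36 in RR_Rap against RS_Rap and −1.44 ± 0.24 and −1.78 ± 0.36 in RR_Rap against RS_DMSO. Averaged over its 3 probe sets, the Grb10 change was −2.55 against RS_Rap and −2.63 against RS_DMSO.

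The wider insulin and IGF pathway was read through 84 further genes sorted by role, of which 64 had a probe set above the filter. In RR_Rap against RS_Rap 40 were called, 16 higher and 24 lower, in RS_Rap against RS_DMSO 21, with 16 higher and 5 lower, and in RR_Rap against RS_DMSO 37, with 21 higher and 16 lower, read against the 55.7%, 33.7% and 50.8% of all genes. The medians over the list were −0.09, 0.10 and −0.04, beside −0.08, 0.03 and −0.06 over all genes. In each role up to 3 genes with the largest called change and no overlap of groups are named. Below the filter were Irs3, Grb7, Grb14, Shc3, Shc4, Igfbp1, Igfbp3, Igfals, Insrr and Pappa, and the other 10 genes were not analysed here.

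In the resistant cells against RS_Rap, the glucose transporter Slc2a4 rose and the largest falls were in Igfbp7, an IGF-binding protein, and Socs3, a feedback inhibitor of cytokine and insulin signalling. Slc2a4 averaged a signal of 257 in RR_Rap, 42.5 in RS_Rap and 45.8 in RS_DMSO, a log2 change of 2.40 ± 0.42 (limma adjusted p = 0.000108). Igfbp7 averaged 1559 in RR_Rap, 7427 in RS_Rap and 3692 in RS_DMSO (−2.24 ± 0.09, adjusted p = 1.81e-12) and Socs3 189 in RR_Rap, 740 in RS_Rap and 598 in RS_DMSO (−1.89 ± 0.14, adjusted p = 3.45e-09). Over all genes 25.9% were called higher and 29.9% lower in this comparison. Of 12 genes for Akt and its metabolic targets 7 were higher and 1 lower, with Foxo1, a transcription factor that Akt excludes from the nucleus, at −1.31 and Tbc1d4, a Rab regulator of glucose transport, at 1.00. Of 7 genes for PI3-kinase and PDK1 1 was higher and 5 lower, with Pik3r3 at −1.08, the kinase Pdpk1 at −0.95 and Pik3cd at 0.93. Of 14 further adaptors 1 was higher and 6 lower, among them Dok1 at −1.47, Gab2 at −0.88 and Sh2b3 at −0.62. The 12 phosphatases and inhibitors had 3 higher and 6 lower, including the Akt inhibitor Trib3 at 1.39 and Socs2 at −1.0. The 8 Ras and MAP kinase genes had 3 higher and 3 lower, with Araf at −1.31, Sos1 at −0.76 and Nras at 0.73. Igfbp4 changed by −0.70, the secreted protease Htra1 by −1.64 and the insulin-degrading enzyme Ide by 0.83. The largest adjusted p of these 19 genes was 0.0483 (limma, over all probe sets), for Pik3cd. The call of Pik3cd was lost without any one RR_Rap or RS_Rap array, at 0.84 to 1.00, and that of Igfbp4 without the first or the second RR_Rap array or the second or the third RS_Rap array, at −0.57 to −0.66. Averaging probe sets ended the calls of Gab2 (−0.34), Igfbp4 (−0.55), Pik3cd (−0.11) and Sos1 (0.22).

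Under 24 h of rapamycin in the sensitive cells, 16 of the 64 listed genes were called higher and 5 lower. Over all genes 19.2% were called higher and 14.5% lower in this comparison. Foxo3, another Akt-controlled transcription factor, averaged 417 in RR_Rap, 419 in RS_Rap and 193 in RS_DMSO (1.10 ± 0.21 in RS_Rap against RS_DMSO, adjusted p = 0.000648), and Foxo1 changed by 0.49. The PI3-kinase subunits Pik3r1, Pik3ca and Pik3r2 changed by 0.65, 0.46 and 0.42, so that 3 of the 7 genes of this role rose and 0 fell. The adaptors Gab2 (0.81) and Gab1 (0.49) were the 2 of 14 that rose, and Sos1 (0.45) and Araf (0.41) the 2 of 8 in the Ras arm. Of the inhibitors 4 rose and 2 fell, with Trib3 at −1.47, the ubiquitin ligase Nedd4, which binds Grb10, at 0.74 and Socs2 at 0.44. Gys1, glycogen synthase, fell by 0.73, Igfbp5 changed by −1.01, Igfbp7 by 1.01, Htra1 by 0.32 and Ide by 0.23. The largest adjusted p of these 17 genes was 0.0312, for Ide. The calls of Gab2 (0.55), Foxo1 (0.33), Sos1 (−0.12), Igfbp5 (−0.41) and Ide (0.003) were lost with probe sets averaged. Without the first RS_Rap array those of Htra1 (0.26), Igfbp5 (−0.79) and Ide (0.18) were lost. Those of Igfbp5 and Ide were also lost without the third RS_Rap array (−0.93 and 0.24) or the second RS_DMSO array (−1.03 and 0.20), that of Igfbp5 without the third RS_DMSO array (−0.80) and that of Ide without the first (0.24).

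Against RS_DMSO the resistant cells again had more Slc2a4 (2.27 ± 0.42, adjusted p = 0.000251) and less Socs3 (−1.58 ± 0.14, adjusted p = 6.75e-08) and Igfbp7 (−1.23 ± 0.09, adjusted p = 8.52e-09). Dok1 changed by −1.22, Pik3r3 by −1.24, Pdpk1 by −0.86, Araf by −0.89, Foxo1 by −0.82 and Htra1 by −1.33. The inhibitor Socs6 changed by −0.81 and the receptor phosphatase Ptprf by 0.67. Higher were Foxo3 (1.06), Ide (1.05), Sh2b2 (1.13), Nras (0.80), Braf (0.66), Cbl (0.56), Igf2bp3 (0.33) and Pik3ca (0.23), and the largest adjusted p of the 19 genes was 0.0448, for Pik3ca. The call of Pik3ca was lost without any one RR_Rap array, the third RS_DMSO array or the second or the third RS_Rap array (0.16 to 0.26), that of Sh2b2 without the third RR_Rap array (1.02), that of Cbl without the first RR_Rap or RS_DMSO array (0.42 and 0.49) and that of Igf2bp3 without the first or the third RR_Rap or the third RS_DMSO array (0.24 to 0.35). With probe sets averaged the calls of Nras (0.15), Sh2b2 (0.52), Cbl (0.48) and Pik3ca (−0.04) were lost.

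**Figure D3:**
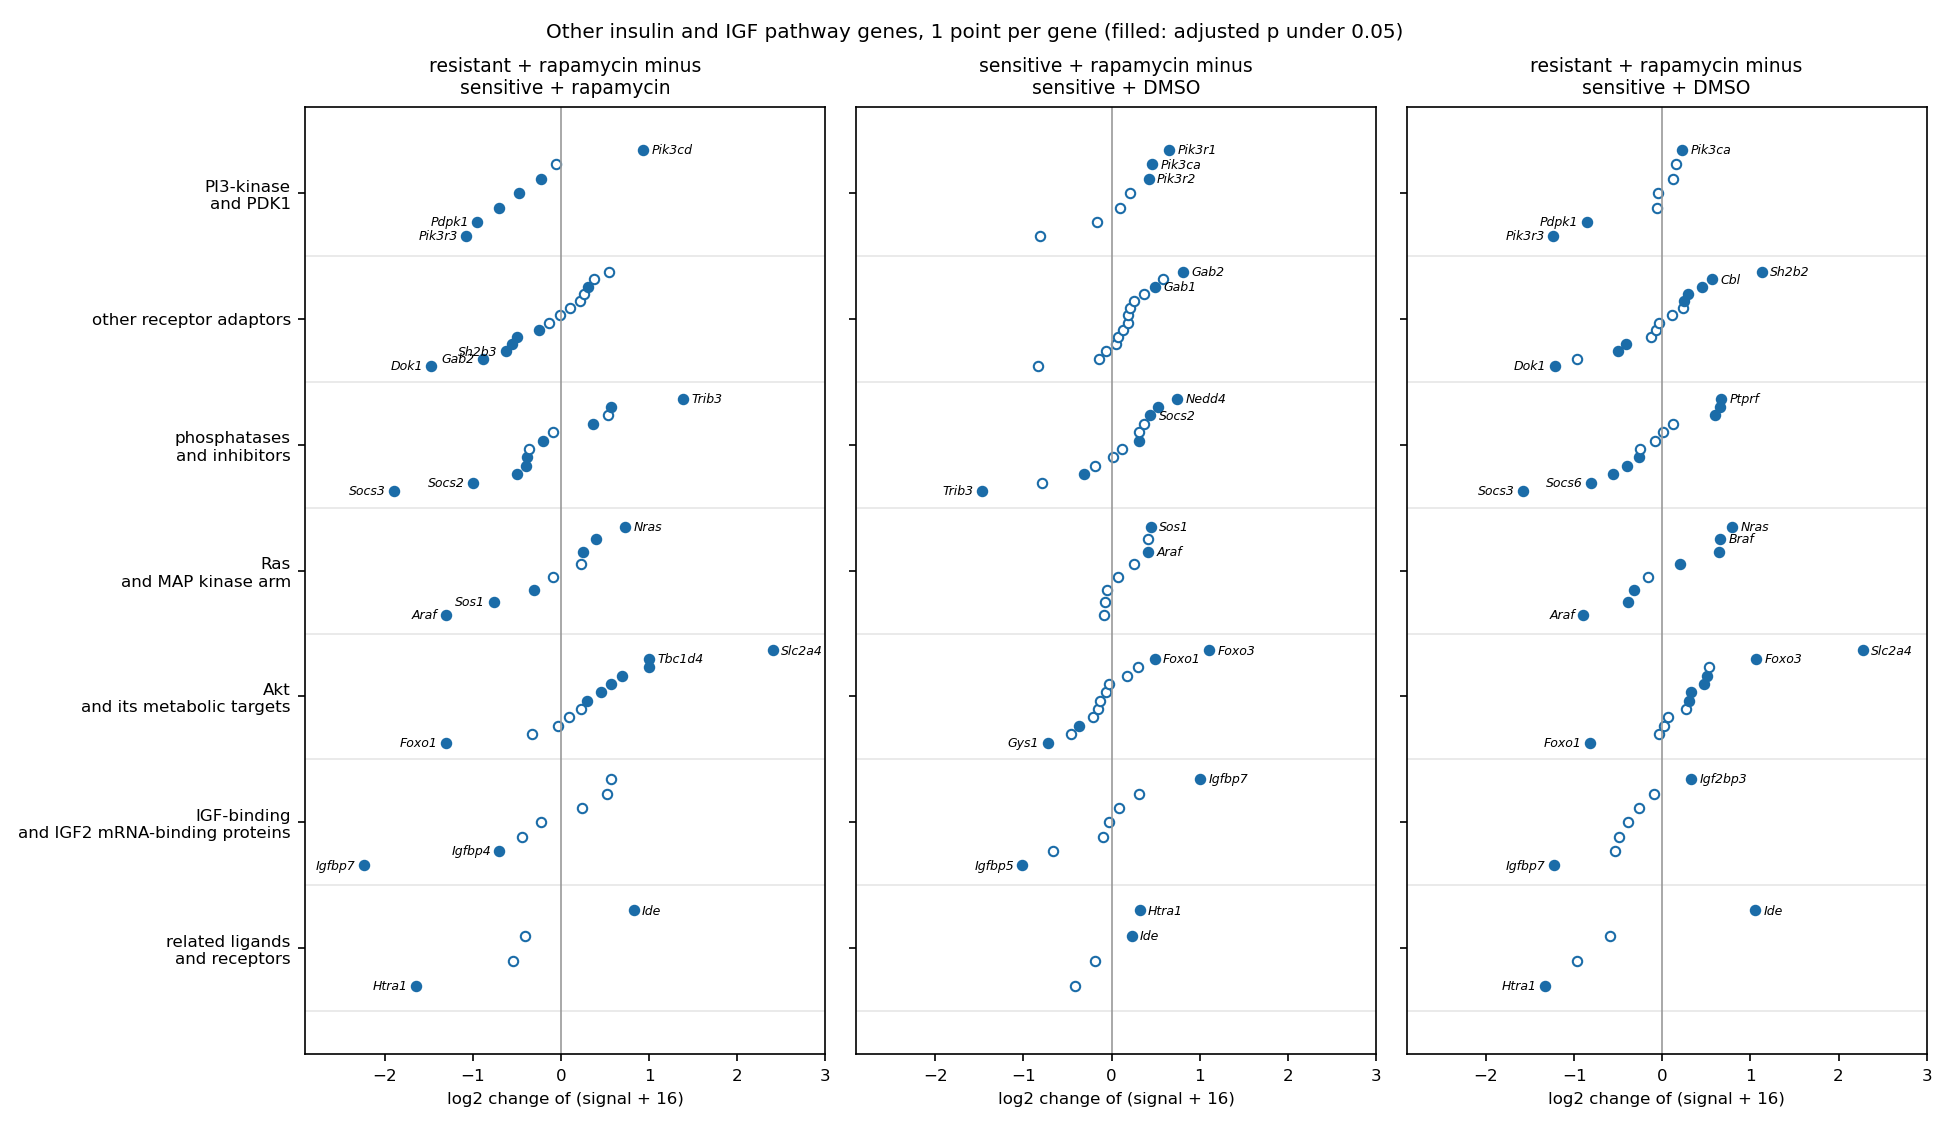
Log2 change of the tested genes of the wider insulin and IGF pathway, by role, in RR_Rap minus RS_Rap, RS_Rap minus RS_DMSO and RR_Rap minus RS_DMSO, with filled points for an adjusted p under the threshold of 0.05. Slc2a4 (2.40) and Igfbp7 (−2.24) mark the ends of the first comparison. In RS_Rap minus RS_DMSO 16 of the 64 genes were called higher and 5 lower, where 19.2% and 14.5% of all genes were.

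For Grb10, Igf1r and Irs1 the genes with the most similar profile over the 9 arrays were named, by the root mean square difference between log2 signals centred on each probe set's own mean. Closest to Grb10 were Tmem45a (0.18), Cnn1 (0.21), Akr1c13 (0.24), Ifih1 (0.25) and Magea6 (0.28). In RR_Rap all of these but Ifih1 averaged under the filter signal of 22.2, as Grb10 did, so the added 16 largely sets their values there, and with them the measure of likeness and its order. Cnn1, a smooth muscle calponin, averaged 14.2 in RR_Rap, 768 in RS_Rap and 775 in RS_DMSO. Closest to Igf1r were Sspn (0.10), Zswim8, Tmem176b, Ubr4 and Per3 (0.16 each), and Sspn, a membrane protein of muscle, averaged 316 in RR_Rap, 273 in RS_Rap and 127 in RS_DMSO. Closest to Irs1 were Acp2 (0.10), Sfxn3 (0.13), Ypel3 (0.14), Etfbkmt (0.15) and Grn (0.15). Acp2, a lysosomal acid phosphatase, averaged 163 in RR_Rap, 554 in RS_Rap and 300 in RS_DMSO, and Grn, the gene of progranulin, 2486 in RR_Rap, 8198 in RS_Rap and 4662 in RS_DMSO. The likeness is over 3 groups of 3 arrays that share their scaling and is a description.

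**Figure D4:**
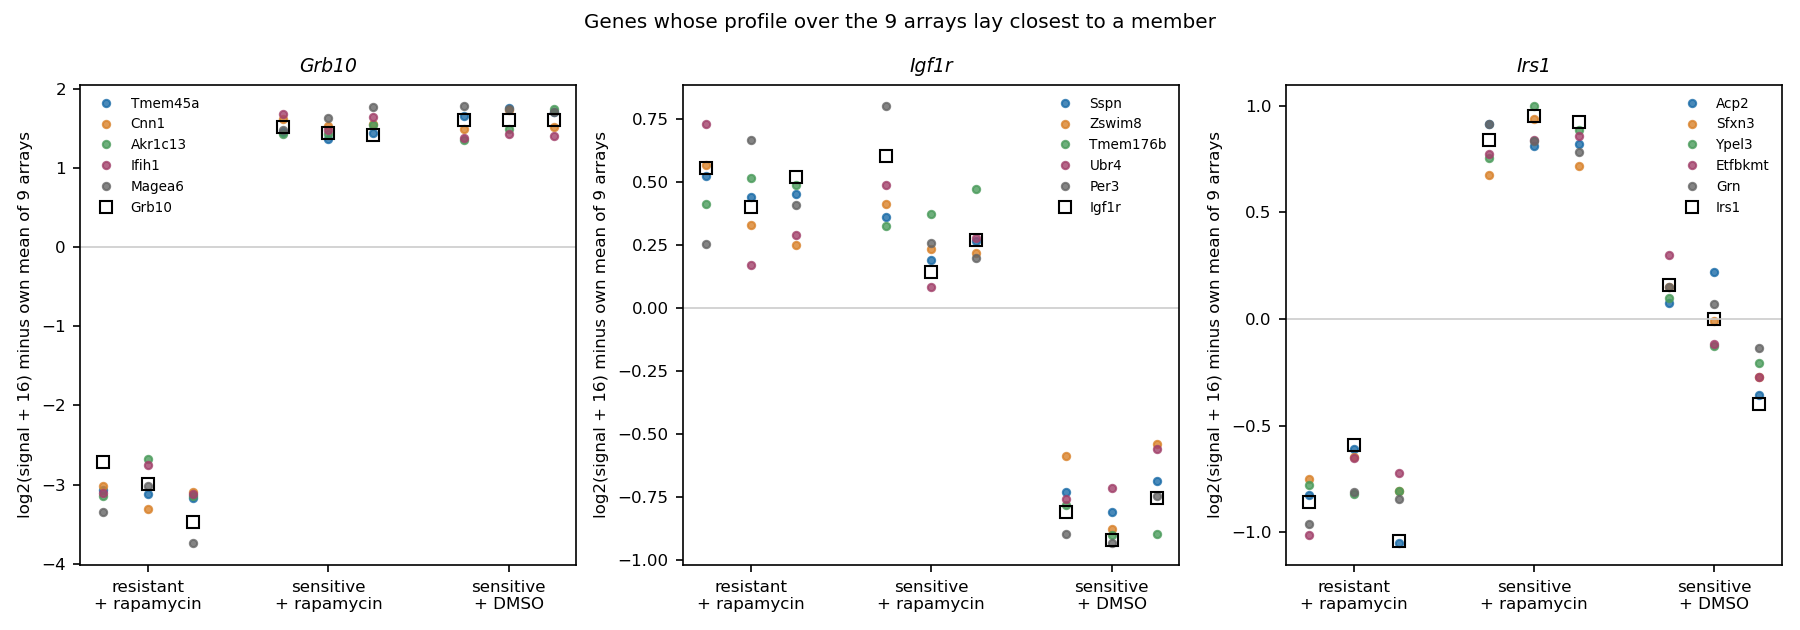
Log2(signal + 16) over the 9 arrays, centred on each gene's own mean, for Grb10, Igf1r and Irs1 and the 5 genes most like each, with arrays of RR_Rap, RS_Rap and RS_DMSO from left to right. Grb10 and its 5 likest genes are lowest in the RR_Rap arrays, Igf1r and its 5 are high in both rapamycin groups, and Irs1 and its 5 peak in RS_Rap.

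The nearest genes above the filter along the chromosome, up to 2 on each side of a member, gave 38 neighbours. In RR_Rap against RS_Rap 9 were called higher and 9 lower, in RS_Rap against RS_DMSO 6 and 5 and in RR_Rap against RS_DMSO 7 and 12, where 55.7%, 33.7% and 50.8% of all genes were called. The changes that follow are those in RR_Rap against RS_Rap. Of the 4 neighbours of Grb10, 1700042O10Rik (−0.75) and Ddc (−0.84) were not called and averaged under the filter signal in RR_Rap, at 19.1 and 14.3. Cobl averaged 221 in RR_Rap, 321 in RS_Rap and 329 in RS_DMSO (−0.52 ± 0.14, limma adjusted p = 0.00565), and with its probe sets averaged the change was −0.58 and not called. Egfr, the epidermal growth factor receptor, averaged 202 in RR_Rap, 471 in RS_Rap and 369 in RS_DMSO (−1.16 ± 0.12, adjusted p = 1.82e-07), with 30 genes between it and Grb10. In RR_Rap against RS_DMSO all 4 were called lower. Leaving out a single array could end those calls of 1700042O10Rik (−1.34) and Ddc (−1.16). Beside Igf2r, Airn, an RNA that starts within Igf2r and runs antisense to it, averaged 15.6 in RR_Rap, under the filter signal, 64.5 in RS_Rap and 56.2 in RS_DMSO. It was called lower, but the size of its change is limited by background. Mrpl18 was higher (0.96), and Map3k4 (−0.06) and 4732491K20Rik (0.03) were not called. Beside Igf2, Igf2os averaged 19.3 in RR_Rap, also under the filter signal, 48.1 in RS_Rap and 41.9 in RS_DMSO, and its call was lost without any one of 5 arrays. Ins2 (−0.55) and Mrpl23 (0.13) were not called. Tnnt3, a skeletal muscle troponin, averaged 131 in RR_Rap, 22.7 in RS_Rap and 36.7 in RS_DMSO and was called higher. Of the skeletal muscle markers given above, Myog and Ckm also averaged higher in RR_Rap. Their summed signal was lower there through Chrna1, the brightest of them in the sensitive groups. Beside Igf1r, Nr2f2 was higher (0.63, adjusted p = 0.000128, but 0.16 and not called with its probe sets averaged), and Synm (0.55), Ttc23 (0.01) and Mctp2 (0.29) were not called. Beside Irs1, Mff (1.05) and Cul3 (0.44) were higher, and Rhbdd1 (−0.12), the nearest, and Fam124b (−0.48) were not called.

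Of the neighbours of the remaining members, Arhgef18 beside Insr was lower (−0.86) and Pex11g (−0.29) was not called. Beside Igf1, Nt5dc3 (0.75) and Parpbp (1.44) were higher, and Stab2 (0.01) and Pmch (0.88) were not called. Beside Irs2, the collagen genes Col4a1 (−1.57) and Col4a2 (−1.60) were lower, and Myo16 (−0.94) and Tnfsf13b (0.04) were not called. Beside Shc1, Pbxip1 (−3.04) and Flad1 (−0.74) were lower, Cks1b was higher (1.23) and Pygo2 (−0.11) was not called. Beside Grb2, Mrps7 was higher (0.37), and Mif4gd (0.16), Tmem94 (−0.07) and Caskin2 (0.02) were not called.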

How the data were processed

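The authors deposited a signal intensity for each of 45101 probe sets on each array, and the software was GCOS 1.4, per the submitters' processing notes. How it summarised probes is not given in the sources used here. Their intensities were analysed as deposited, with a 2% trimmed mean of 250 on each array. Probe sets were named through the platform annotation (932 have several symbols and 9160 none, and 64 are controls). With limma 3.58.1 in R 4.3.3, log2(signal + 16) of the 27022 probe sets above the filter was fitted over all 9 arrays (lmFit, eBayes with trend, no block), and p-values were adjusted by Benjamini-Hochberg in each comparison. Each gene was counted through its brightest tested probe set. The 95% intervals are not adjusted. The analysis was tested on simulated data. Members, lists and markers were chosen with earlier results of these data known. Arrays numbered alike did not deviate together (correlation −0.078 to 0.011), and those numbered unlike ranged from −0.021 to 0.061. With 3 arrays a group this check cannot settle whether the numbers pair arrays. In the pathway list, the up to 3 genes named per role and comparison are those with the largest absolute change among called genes whose groups do not overlap. The nearest 5 profiles and all neighbours, up to 2 a side, were named whatever their values. The number of arrays limits the precision.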

Additional observations from a re-analysis of the deposited data

How the results depend on the processing

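Each result was recomputed under 17 alternatives, among them other pseudocounts, filters, centring and quantile scaling, averaged probe sets, no variance trend, a replicate block and leaving out each array. The member genes called numbered 5 to 6 in RR_Rap against RS_Rap, 4 to 5 in RS_Rap against RS_DMSO and 6 to 9 in RR_Rap against RS_DMSO, and those of the pathway list 31 to 41, 15 to 22 and 30 to 37. Averaging a gene's probe sets turned the sign of 5 called changes. In RR_Rap against RS_Rap these were Grb2 (0.006), Pik3cd (−0.113) and Sos1 (0.223). The others were Sos1 (−0.115) in RS_Rap against RS_DMSO and Pik3ca (−0.044) in RR_Rap against RS_DMSO. Of the member changes that were not called, Igf1 in RR_Rap against RS_Rap also turned, from 0.241 to −0.041. So did Grb2 in RS_Rap against RS_DMSO, from 0.02 to −0.262. The calls of Igf2r, Igf1 and Grb2 in RR_Rap against RS_DMSO were also lost with averaging (0.39, 0.41 and −0.256). Those of Igf2 in RS_Rap against RS_DMSO and of Insr and Grb2 in RR_Rap against RS_DMSO were lost without the trend. Quantile scaling ended the call of Igf2r in RR_Rap against RS_Rap (−0.41). Centring moved the median of all genes there from −0.079 to 0.052, and Igf1r was then called (0.29), as it was without the first RS_Rap array. Some named pathway calls were also lost under settings other than averaging or leaving out an array. These were Igfbp4 and Pik3cd in RR_Rap against RS_Rap and Htra1, Igfbp5 and Ide in RS_Rap against RS_DMSO. In RR_Rap against RS_DMSO they were Cbl and Pik3ca. With the replicate block 6986, 4144 and 6304 genes were called, against 7088, 4286 and 6464 without it, and the member calls numbered 6, 5 and 9. The causes were not tested. Signals near background limit Irs2, Grb10 and Igf2 in the resistant cells.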
